A study of Homo sapiens with 4 samples.

Results

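The listed adhesion G-protein-coupled receptor genes were compared between GFI1-KO and WT endothelial cells. The group held 10 genes of the 19912 in the count table: ADGRF5, ADGRL4, ADGRL1, ADGRL2, ADGRL3, ADGRA2, ADGRA3, ADGRG1, ADGRG6 and ADGRE5. They were chosen by name from the adhesion receptor family with the genotype difference in these libraries already known, so their own differences between genotypes, and whether the fit over all genes called them, describe these libraries and are not independent evidence. The cells were endothelial, made from H1, a line of human embryonic stem cells, and positive for GATA2 with an eGFP tag, as 2 libraries of the GFI1 knockout (GFI1-KO) and 2 of the wild type (WT). All 4 libraries share the H1 background and, per the labels, the GATA2/eGFP selection. How the knockout was made, whether it is a single clone, and whether replicates are separate cultures, was not given in the sources used here. Any p-value therefore measures only the spread between these libraries, which may be technical.

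Adhesion receptors carry a long extracellular part made of adhesion modules, a GAIN domain that many of them cleave at their own GPS site, and a membrane-spanning bundle that couples to G proteins. When the outer fragment is pulled off or shifted by a ligand, a short stretch behind the cleavage site can act as a tethered agonist. In endothelium the family is known for ADGRL4 (ELTD1) in vessel sprouting, for ADGRA2 (GPR124) as a co-activator of Wnt7 signals in brain vessels of mouse and zebrafish, and for ADGRF5 (GPR116) in vascular barrier function in mouse.

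Library totals were 146584 and 2332621 counts in GFI1-KO replicates 1 and 2, and 2239214 and 2417410 in WT replicates 1 and 2. A single count in the shallow GFI1-KO replicate 1 is worth 6.62 CPM (the count scaled to a common TMM-adjusted depth), against 0.42 to 0.447 CPM in the other 3 libraries. The 10 genes together held 170 and 2807 counts in GFI1-KO and 2583 and 2254 in WT. GFI1 itself had 3 and 44 counts in the libraries labelled GFI1-KO, and 131 and 139 in WT (log2 fold change -1.57, SE 0.31, edgeR adjusted p = 0.0215). That call was lost with DESeq2 (0.582) and on leaving out GFI1-KO replicate 2 (0.271), WT replicate 1 (0.137) or WT replicate 2 (0.096), in a range of 0.000209 to 0.582 over the alternatives. GATA2, the gene the cells were selected on, was at 139 and 124 CPM in GFI1-KO, against 293 and 252 CPM in WT (log2 fold change -1.09, SE 0.24, edgeR adjusted p = 0.0376). It was called in 5 of 11 alternatives, with adjusted p of 0.00085 to 0.446, and lost the call without GFI1-KO replicate 2 (0.131) and without either WT library (0.446 and 0.0876), among others. Its part in the results was not tested. The 12 endothelial marker genes were all detected and summed to 8479 and 9990 CPM in GFI1-KO, against 6993 and 7178 CPM in WT. Of 12 blood markers 4 passed the low-count filter, PTPRC, HBE1 and HBG1 had 0 counts in every library, and the list summed to 26.5 and 19.6 CPM in GFI1-KO, against 53.6 and 73.9 CPM in WT. The sum of GFI1-KO replicate 1 rests on 4 counts, and LYZ and CD14, which did not pass the filter, were higher in both GFI1-KO libraries. Of 8 pluripotency markers 4 passed, NANOG had 0 counts in every library, and the sum was 848 and 874 CPM in GFI1-KO, against 1074 and 1166 CPM in WT. The sums of 10 mesenchymal markers (1808 and 1865 CPM in GFI1-KO, 2197 and 1825 CPM in WT) and 6 epithelial markers (238 and 545 CPM in GFI1-KO, 656 and 453 CPM in WT) overlapped. The endothelial sum was higher, and the blood and pluripotency sums lower, in both GFI1-KO libraries. Their part in the results below was not tested. KDR alone made up 3703 and 4970 CPM of the endothelial sum in GFI1-KO, and 2995 and 3285 CPM of it in WT. KDR was not called (log2 fold change 0.47, SE 0.23, edgeR adjusted p = 0.561). Of the 12 endothelial markers 11 had a log2 fold change above 0 and 1, PECAM1, had one below. Of all 11380 tested genes 5404 were above 0 and 5976 below. LIN28A and DNMT3B made up most of the pluripotency sum, while POU5F1 had 0 and 5 counts in GFI1-KO and 4 and 13 in WT. In such bulk samples, fewer cells of a type and less RNA per cell cannot be told apart.

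ADGRF5 and ADGRL4 were the listed genes that were called higher in GFI1-KO, and none was called lower. A call was an adjusted p under 0.05 in edgeR's quasi-likelihood test over the 11380 genes that passed the low-count filter. Of all tested genes 0.773% were called higher, and because the genes were chosen with this contrast known, nothing is read from the call or from 2 of 9 against that share. ADGRG1 was the listed gene that did not pass the filter. DESeq2 and the newer quasi-likelihood dispersion called ADGRF5 alone among the 10.

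ADGRF5 encodes GPR116, a receptor that in mouse restrains surfactant secretion in the lung and is also made by endothelium. The gene (ENSG00000069122) lies on chromosome 6, 46852512 to 46954943, minus strand (GRCh38, GENCODE 29), and shares no exon with another annotated gene. It had 13 and 136 counts in GFI1-KO replicates 1 and 2, against 23 and 30 in WT. Scaled to depth, it was at 86.1 and 60.5 CPM in GFI1-KO, against 10.3 and 12.6 CPM in WT. Both GFI1-KO libraries lay several times above both WT libraries, and the counting interval of even the shallow library, 45.9 to 147 CPM, lay above the 18.0 CPM that bounds WT replicate 2. The means were 73.3 ± 18.1 CPM in GFI1-KO and 11.4 ± 1.64 CPM in WT (SD, n = 2 each). The log2 fold change was 2.53, with a standard error (SE) of 0.34. On pooled counts the ratio was 5.42, with an exact 95% interval of 3.94 to 7.56 for counting error alone. Over the 11 alternative analyses the log2 fold change ran from 2.40 to 2.91, and all 11 called the gene.

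ADGRL4 encodes ELTD1, a receptor of endothelial and smooth muscle cells that was named for its EGF and latrophilin-like modules. The gene (ENSG00000162618) lies on chromosome 1, 78889764 to 79006718, minus strand, and likewise shares no exon. It had 15 and 529 counts in GFI1-KO, against 136 and 174 in WT. The levels were 99.4 and 235 CPM in GFI1-KO, against 60.7 and 73.0 CPM in WT. Both GFI1-KO values were above both WT values, but the GFI1-KO libraries stood apart from each other: their counting intervals, 55.6 to 164 and 216 to 256 CPM, did not overlap. That of GFI1-KO replicate 1 also took in most of the WT intervals, which ran from 51.0 to 71.8 and from 62.6 to 84.7 CPM. The means were 167 ± 96.2 CPM in GFI1-KO and 66.9 ± 8.69 CPM in WT, a log2 fold change of 1.52 (SE 0.29). Without GFI1-KO replicate 2 the log2 fold change was 0.58, and 1.81 without GFI1-KO replicate 1. The call was made in 7 of 11 alternatives. It was lost with DESeq2, with the newer dispersion, and when either WT replicate 1 or GFI1-KO replicate 2 was left out.

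**Figure D1:**
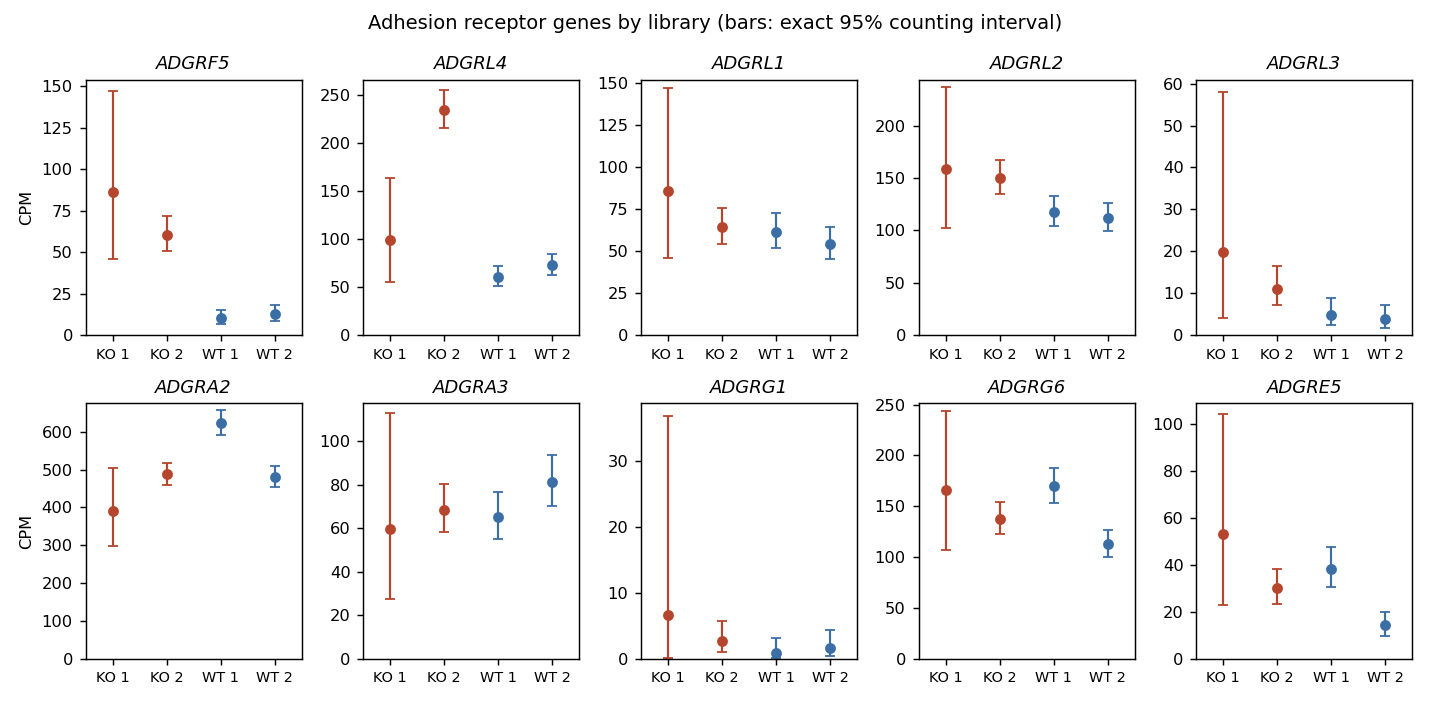
CPM of each listed receptor gene in the 2 GFI1-KO (red) and 2 WT (blue) libraries, with a scale of its own in each panel and bars for the exact 95% counting interval. ADGRF5 is at 86.1 and 60.5 CPM in GFI1-KO and 10.3 and 12.6 CPM in WT, while the bars of KO 1 are wide in every panel because that library holds 146584 counts.

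The stretches before the start sites of these 2 genes are shown because these were the listed genes called higher in GFI1-KO. RefSeq (GRCh38.p14) windows existed for 7 of the 10 genes, 18 windows in all, and none was matched for ADGRL1, ADGRA2 and ADGRE5. Each window is the 250 bases before the start site, read 5′ to 3′ on the gene's strand. Capitals mark AATC, the core that GFI1 binds, and GGAA, the core that ETS factors bind, on either strand (so also GATT and TTCC). Where the motifs share letters, as in GATTCC before ADGRL4, both are in capitals.
ADGRF5, outer start (chr6:46954940-46955189, minus strand): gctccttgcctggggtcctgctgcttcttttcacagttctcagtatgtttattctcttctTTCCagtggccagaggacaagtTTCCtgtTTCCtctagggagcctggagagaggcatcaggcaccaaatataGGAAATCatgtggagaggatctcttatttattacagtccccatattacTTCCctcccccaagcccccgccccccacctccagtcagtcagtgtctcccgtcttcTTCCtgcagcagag
ADGRF5, inner start (chr6:46921939-46922188, minus strand): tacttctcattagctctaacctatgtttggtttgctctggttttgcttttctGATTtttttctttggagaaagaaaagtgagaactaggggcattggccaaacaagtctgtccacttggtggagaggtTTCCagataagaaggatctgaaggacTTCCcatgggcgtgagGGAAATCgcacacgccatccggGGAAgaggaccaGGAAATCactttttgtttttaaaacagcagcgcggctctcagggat
ADGRL4 (chr1:79006731-79006980, minus strand): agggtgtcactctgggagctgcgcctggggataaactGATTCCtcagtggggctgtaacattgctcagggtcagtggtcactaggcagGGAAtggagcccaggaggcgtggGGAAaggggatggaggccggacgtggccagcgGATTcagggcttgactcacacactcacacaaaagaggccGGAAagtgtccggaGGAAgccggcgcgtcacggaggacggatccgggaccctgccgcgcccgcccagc

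AATC occurred 1 time in the outer ADGRF5 window, 115 bases before the start site, 3 times in the inner one and 2 times in that of ADGRL4. The longer form AAATCA (or TGATTT) occurred 1 and 2 times in the ADGRF5 windows and 0 times in that of ADGRL4. GGAA occurred 6, 5 and 5 times in the same windows, in the order printed, and AGATAA, a form that GATA factors bind, occurred 1 time, in the inner ADGRF5 window. Over all 35116 windows of this length in the table, 64.8% held AATC, 11.6% held AAATCA, 92.7% held GGAA and 9.17% held AGATAA, each on either strand. Among the 18 windows of the listed genes the numbers were 12, 4, 16 and 2. ADGRL2, with 8 windows, held AATC in 6 of them, and the single windows of ADGRA3 and ADGRG6 held it in 0. The share of G and C bases was 51.6% and 45.6% in the ADGRF5 windows and 64% in that of ADGRL4. The median over all windows was 58%, and the percentages above are not matched for this share. A match of so few letters is a description of the sequence and not a binding site, and counts per gene do not tell which start was used.

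The latrophilins ADGRL1, ADGRL2 and ADGRL3 are receptors for teneurins and FLRT proteins, best known at synapses. ADGRL2 (chromosome 1, 81306160 to 81992436, plus strand) had 24 and 338 counts in GFI1-KO, against 264 and 267 in WT. That was 159 and 150.4 CPM in GFI1-KO, against 118 and 112 CPM in WT. The groups did not overlap and replicates were close, with means of 155 ± 6.04 CPM in GFI1-KO and 115 ± 4.14 CPM in WT (log2 fold change 0.41, SE 0.23). The value stayed between 0.39 and 0.48 over the alternatives and was not called in any of them. ADGRL1 (chromosome 19, 14147743 to 14206187, minus strand) was at 86.1 and 64.1 CPM in GFI1-KO, against 61.6 and 54.1 CPM in WT (log2 fold change 0.24, SE 0.27, and 0.15 to 0.58 over the alternatives). Its lower GFI1-KO value was barely above the higher WT value. ADGRL3 (chromosome 4, 61201258 to 62078335, plus strand) had only 3 and 25 counts in GFI1-KO, against 11 and 9 in WT, or 19.9 and 11.1 CPM in GFI1-KO, against 4.91 and 3.78 CPM in WT. The log2 fold change of ADGRL3 was 1.48 (SE 0.56), close to that of ADGRL4, but it was not called in any analysis. Its value in GFI1-KO replicate 1 stood at the floor of 3 counts, with a counting interval of 4.10 to 58.1 CPM. On pooled counts its ratio was 2.70 (exact 95% interval 1.47 to 5.05). ADGRL1 shares 473 exonic bases with the antisense gene AC022098.1 and ADGRL3 shares 153 with ADGRL3-AS1, and the strand setting of the counting is not given in the sources used here.

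ADGRA2 and ADGRA3 form a pair of related receptors. ADGRA2 works beside RECK and Frizzled as a Wnt7 co-activator in mouse and zebrafish. ADGRA2 (chromosome 8, 37784191 to 37844896, plus strand) had the most reads of the 10 genes, with 59 and 1097 counts in GFI1-KO and 1397 and 1144 in WT. It was at 391 and 488 CPM in GFI1-KO, against 624 and 480.1 CPM in WT. GFI1-KO replicate 2 lay between the WT libraries, so the groups overlapped (log2 fold change -0.29, SE 0.22). ADGRA3 (chromosome 4, 22345071 to 22516054, minus strand) was at 59.6 and 68.5 CPM in GFI1-KO, against 65.2 and 81.4 CPM in WT (log2 fold change -0.14, SE 0.26). These 2 genes had the negative values among the 9 tested. ADGRA2 stayed below 0 in all 11 alternatives, from -0.49 to -0.09, whereas ADGRA3 reached 0.03 without WT replicate 2. ADGRA2 shares 1629 exonic bases with BRF2, a gene of the opposite strand whose log2 fold change was -0.18.

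ADGRG6 (GPR126) is required for myelination by Schwann cells in mouse and zebrafish and binds collagen IV, laminin-211 and the prion protein. ADGRG6 (chromosome 6, 142301854 to 142446266, plus strand) was at 166 and 138 CPM in GFI1-KO, against 169.7 and 113 CPM in WT. Both GFI1-KO values lay between the WT values (log2 fold change 0.05, SE 0.26, and -0.19 to 0.39 over the alternatives). The ratio of pooled counts was 0.995, with an interval of 0.87 to 1.14. ADGRG1 (GPR56), which binds collagen III and TGM2 and in zebrafish takes part in the emergence of blood stem cells, was close to absent. ADGRG1 (chromosome 16, 57610652 to 57665580, plus strand) had 1 and 6 counts in GFI1-KO, against 2 and 4 in WT, and its pooled ratio of 2.25 had an interval of 0.647 to 8.10. ADGRE5 (CD97) is a leukocyte receptor, also made by other cells, that binds CD55, THY1 and integrin α5β1. ADGRE5 (chromosome 19, 14380501 to 14408725, plus strand) was at 53.0 and 30.3 CPM in GFI1-KO, against 38.4 and 14.3 CPM in WT. Its WT libraries differed 2.69-fold, and the log2 fold change was 1.33 without WT replicate 1 and -0.12 without WT replicate 2, against 0.38 (SE 0.44) with all libraries. ADGRE5 shares 252 exonic bases with the antisense gene AC008569.1.

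For 5 of the 9 tested genes, ADGRF5, ADGRL4, ADGRL1, ADGRL2 and ADGRL3, both GFI1-KO libraries were above both WT libraries, and for 0 of 9 they were below. All tested genes did so in 18.6% and 22.7% of cases. These include every tested latrophilin, the group to which ADGRL4 also belongs by name. As the list was chosen with these values known, the counts are descriptions.

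Set per length, the order of the 10 genes differed between genotypes mainly in the places of ADGRF5 and ADGRA3. Levels here are CPM per kb of merged exons, in which a gene with many annotated exons, such as ADGRL3 with 13991 exonic bases, comes out low. In GFI1-KO the order was ADGRA2 (62.3 ± 9.76), ADGRL4 (45.5 ± 26.2), ADGRL2 (20.0 ± 0.778), ADGRG6 (17.9 ± 2.31), ADGRF5 (11 ± 2.72), ADGRL1 (8.85 ± 1.83), ADGRE5 (7.74 ± 2.99), ADGRA3 (6.93 ± 0.683), ADGRL3 (1.11 ± 0.442) and ADGRG1 (0.537 ± 0.323). In WT it was ADGRA2 (78.2 ± 14.4), ADGRL4 (18.2 ± 2.36), ADGRG6 (16.7 ± 4.74), ADGRL2 (14.8 ± 0.533), ADGRA3 (7.92 ± 1.24), ADGRL1 (6.82 ± 0.624), ADGRE5 (4.89 ± 3.17), ADGRF5 (1.72 ± 0.247), ADGRL3 (0.311 ± 0.0574) and ADGRG1 (0.148 ± 0.0641; SD, n = 2 throughout). ADGRF5 thus ranked 5 in GFI1-KO and 8 in WT, ADGRA3 ranked 8 in GFI1-KO and 5 in WT, and ADGRL4 ranked 2 in both. In GFI1-KO the library values of ADGRA2 and ADGRL4 overlapped, as did those of ADGRL2 and ADGRG6, and those of ADGRF5, ADGRL1, ADGRE5 and ADGRA3 formed an overlapping run, with ADGRL3 and then ADGRG1 below it. In WT, ADGRA2 stood clear of the rest, ADGRL4, ADGRG6 and ADGRL2 overlapped, and so did ADGRA3, ADGRL1 and ADGRE5, while ADGRF5, ADGRL3 and ADGRG1 were each below the gene before.

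**Figure D2:**
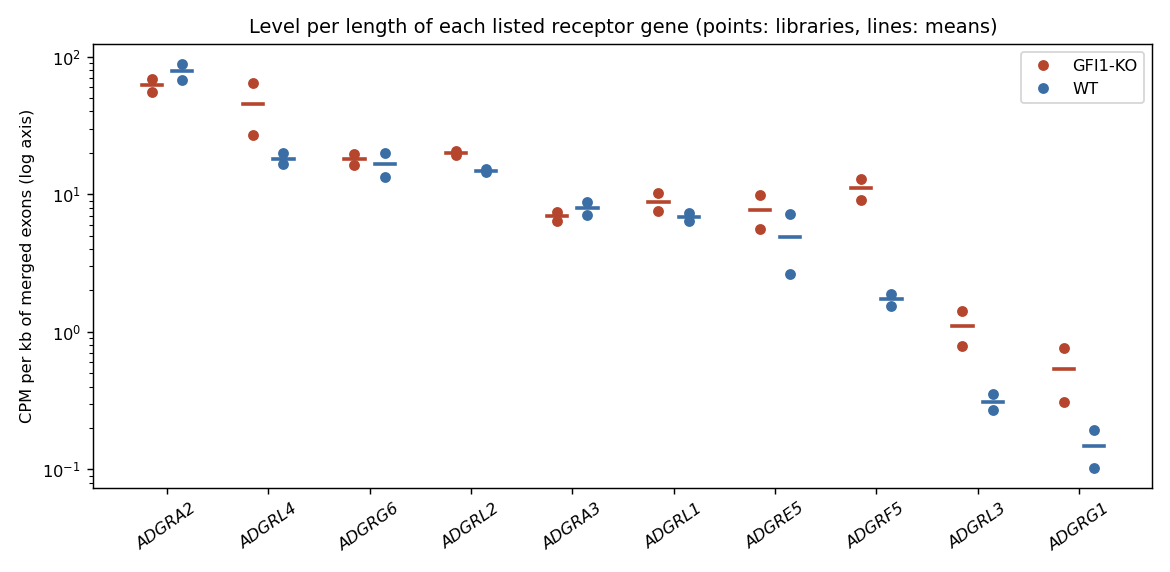
CPM per kb of merged exons on a log axis for the 10 listed genes, ordered by their WT mean, with GFI1-KO libraries (red) left of WT libraries (blue) and lines at the means. ADGRF5 stands at a mean of 11 in GFI1-KO and 1.72 in WT, and ADGRA2 at 62.3 and 78.2.

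The genes' summed level overlapped between genotypes, at 1126 and 1249 CPM in GFI1-KO and 1153 and 946 CPM in WT. For 7 of the 10 genes the shares of it did not: ADGRF5, ADGRL4, ADGRL2, ADGRL3, ADGRA2, ADGRA3 and ADGRG1. Some of these were near ties. ADGRL2 held 14.1% and 12% in GFI1-KO, against 10.2% and 11.8% in WT. ADGRA3 held 5.29% and 5.49% in GFI1-KO, against 5.65% and 8.61% in WT. By CPM, 18.6% of all tested genes had both GFI1-KO libraries above both WT libraries, and 22.7% had both below. CPM is not the same measure as these shares. Shares add up to a whole, so they do not move independently, and ADGRA2 and ADGRA3 overlapped in CPM. The share of ADGRG1 rests on 1 and 6 counts in GFI1-KO and 2 and 4 in WT. The list was chosen with this contrast known, so these shares are descriptions. ADGRA2 held 34.7% (exact Clopper-Pearson 95% interval 27.6 to 42.4) and 39.1% (37.3 to 40.9) of the 10 genes' counts in GFI1-KO, against 54.1% (52.1 to 56.0) and 50.8% (48.7 to 52.8) in WT. ADGRL4 held 8.82% (5.02 to 14.1) and 18.8% (17.4 to 20.3) in GFI1-KO, against 5.27% (4.44 to 6.20) and 7.72% (6.65 to 8.90) in WT. ADGRF5 held 7.65% (4.13 to 12.7) and 4.85% (4.08 to 5.71) in GFI1-KO, against 0.89% (0.565 to 1.33) and 1.33% (0.90 to 1.89) in WT. For ADGRF5 every GFI1-KO interval lay above every WT interval, for ADGRA2 every one lay below, and for ADGRL4 the interval of GFI1-KO replicate 2 alone was clear of WT. For the other 4 genes intervals of the genotypes overlapped.

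Of the other 22 adhesion receptor genes in the table, 8 passed the filter and 0 were called by edgeR, DESeq2 or limma-voom. Of all tested genes edgeR called 0.958%. In that edgeR fit 1 of the 8 had an unadjusted p under 0.05, and 9.35% of all tested genes did. Their median log2 fold change was 0.09, with 4 above 0 and 4 below. Over all 11380 tested genes the median was -0.02, with 5404 above 0 and 5976 below. ADGRE2 (EMR2), a myeloid receptor whose EGF modules are nearly the same as those of ADGRE5, had the smallest p. It had 1 and 5 counts in GFI1-KO, against 24 and 24 in WT (log2 fold change -1.99, SE 0.67, edgeR adjusted p = 0.224). Both GFI1-KO libraries were below both WT libraries, though the value in the shallow library rests on a single read. Without GFI1-KO replicate 2 the log2 fold change was -0.63. ADGRE2 shares 1354 exonic bases with ZNF333, and reads of its EGF exons may not be told from those of ADGRE5. ADGRB1, a brain receptor that binds phosphatidylserine, was at 0 and 5 counts in GFI1-KO and 10 and 13 in WT (adjusted p = 0.736). For ADGRB2 the log2 fold change was 0.65 (adjusted p = 0.743, and 1.11 without GFI1-KO replicate 2), and for the planar polarity cadherin CELSR2 it was -0.57 (adjusted p = 0.785). The remaining tested receptors, CELSR3, ADGRV1, ADGRG5 and CELSR1, ran from 0.40 to -0.04 with adjusted p of 0.904 to 0.998. A further 6 had 0 counts in all 4 libraries, among them ADGRF1, which lies 42760 bases from ADGRF5.

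**Figure D3:**
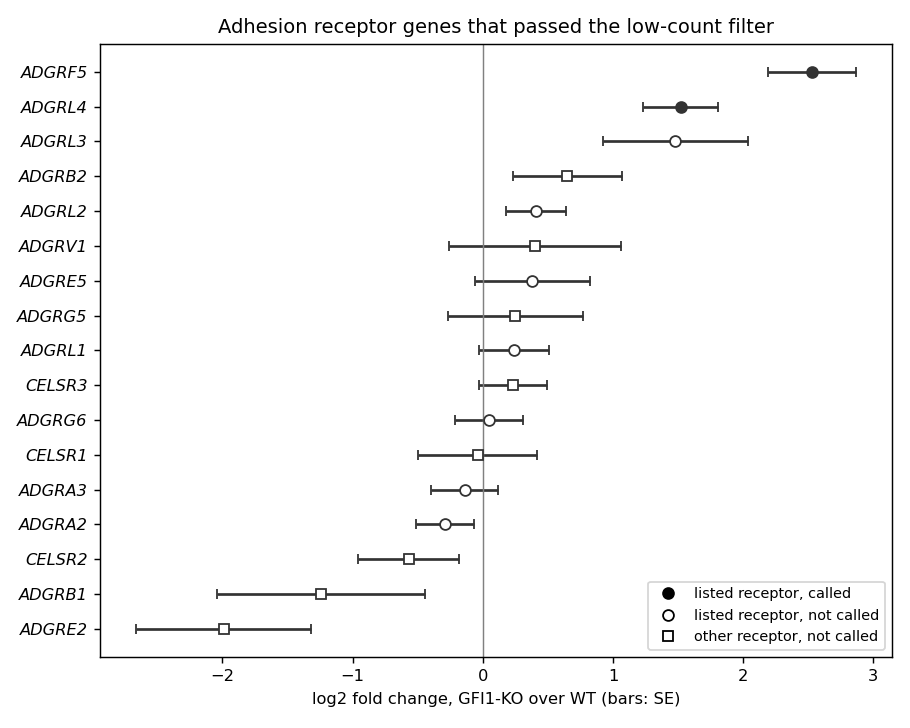
Log2 fold change, GFI1-KO over WT, of the 17 adhesion receptor genes that passed the low-count filter, with SE bars. Circles are listed genes and squares other receptors, and filled symbols are called: ADGRF5 (2.53) and ADGRL4 (1.52) at the top, with ADGRE2 (-1.99) at the bottom not called.

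Among ligands and partners of these receptors, 20 of 25 passed the filter and 0 were called by edgeR, DESeq2 or limma-voom, beside 0.958% of all tested genes. In the edgeR fit 7 of the 20 had an unadjusted p under 0.05, beside 9.35% of all tested genes. Of the 20, 13 had a log2 fold change above 0 (median 0.14), beside 5404 of all 11380 tested genes (median -0.02). PRNP, the prion protein that binds ADGRG6, was at 39.7 and 84.6 CPM in GFI1-KO, against 146 and 170.4 CPM in WT (log2 fold change -1.08, SE 0.27, edgeR adjusted p = 0.0782). CD55, the complement regulator bound by ADGRE5, was at 6.62 and 8.01 CPM in GFI1-KO, against 26.3 and 19.7 CPM in WT (-1.54, SE 0.45, edgeR adjusted p = 0.145). Both were lower in both GFI1-KO libraries. TGM2, the crosslinking enzyme bound by ADGRG1, was at 391 and 159 CPM in GFI1-KO, against 133 and 82.7 CPM in WT (1.14, SE 0.34, edgeR adjusted p = 0.167). FZD4, a Frizzled receptor of vessels, was at 106 and 74.8 CPM in GFI1-KO, against 46.9 and 38.2 CPM in WT (0.94, SE 0.27, edgeR adjusted p = 0.135), and shares 1399 exonic bases with PRSS23. These 4 calls depended on the analysis. PRNP and TGM2 passed without the low-count filter and with the replicate block. PRNP also passed without GFI1-KO replicate 1 (adjusted p = 0.0285) and without GFI1-KO replicate 2 (0.00858), in a range of 0.000902 to 0.501 over its alternatives, and its log2 fold change was -1.98 without GFI1-KO replicate 2. TGM2 also passed on leaving out GFI1-KO replicate 2 (2.28e-07) or WT replicate 1 (0.0132), in a range up to 1, and its log2 fold change was 0.56 without GFI1-KO replicate 1 and 1.87 without GFI1-KO replicate 2. CD55 passed without GFI1-KO replicate 1 (0.0289) alone, and FZD4 with the replicate block (0.0129) alone. Of the other Wnt7 partners of ADGRA2, RECK had a log2 fold change of 0.01, and the Wnt co-receptors LRP5 and LRP6 had -0.90 (SE 0.44) and 0.13 (SE 0.27), with edgeR adjusted p of 0.999, 0.556 and 0.966. WNT7A had 1 count in all, and WNT7B had 0. Of the ligands of the latrophilins, FLRT1 and TENM1 did not pass the filter. FLRT2, FLRT3, TENM2, TENM3 and TENM4 had edgeR adjusted p of 0.243 to 0.947, in both directions. FLRT2 was at 33.1 and 50.7 CPM in GFI1-KO, against 84 and 81 CPM in WT (log2 fold change -0.79, SE 0.27). The log2 fold changes of FLRT3, TENM2, TENM3 and TENM4 were 0.65, -0.99, 0.69 and 0.31.

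Of 26 G-protein, small GTPase and exchange factor, adenylyl cyclase, arrestin and kinase genes, all passed the filter. Calls by edgeR, DESeq2 or limma-voom were 0, where edgeR called 0.958% of all tested genes. In the edgeR fit 4 had an unadjusted p under 0.05, beside 9.35% of all tested genes. Of the 26, 19 had a log2 fold change above 0 (median 0.20), beside 5404 of all 11380 tested genes (median -0.02). In 13 of 26 both GFI1-KO libraries were above both WT libraries and in 5 below, beside 18.6% and 22.7% of all tested genes. GRK5, a kinase that switches off active receptors, was at 86.1 and 57.9 CPM in GFI1-KO, against 30.8 and 31.5 CPM in WT (1.03, SE 0.29, edgeR adjusted p = 0.126). It passed with the replicate block alone (0.0353). ARHGEF12, an exchange factor driven by G12 and G13, was at 596 and 475 CPM in GFI1-KO, against 351 and 347 CPM in WT (0.58, SE 0.21, edgeR adjusted p = 0.305). ADCY7, an adenylyl cyclase, was at 13.2 and 24.9 CPM in GFI1-KO, against 42.0 and 41.5 CPM in WT (-0.84, SE 0.33, edgeR adjusted p = 0.363, and -1.64 on the log2 scale without GFI1-KO replicate 2), and shares 3593 exonic bases with BRD7. GNAI1, an inhibitory G-protein subunit, was at 166 and 245 CPM in GFI1-KO, against 138 and 169.5 CPM in WT (0.51, SE 0.24, edgeR adjusted p = 0.53, and 0.12 on the log2 scale without GFI1-KO replicate 2). GNA13, with 0.03, and RHOA, with -0.09, lay near 0.

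Genes close to the listed receptors held 0 calls, where edgeR called 0.958% of all tested genes. Within 500 kb of a listed gene lay 90 other genes of the table, of which 56 passed the filter. None was called by edgeR, DESeq2 or limma-voom, 5 had an unadjusted p under 0.05 in the edgeR fit, beside 9.35% of all tested genes, and the median log2 fold change was -0.00. Around ADGRF5, 2 of 9 neighbours passed the filter: RCAN2, an inhibitor of calcineurin, at 0.75 on the log2 scale (SE 0.39, edgeR adjusted p = 0.601), and TNFRSF21, a death receptor, at 0.35 (SE 0.29, adjusted p = 0.837). Around ADGRL4, 0 of 3 passed, and PTGFR, IFI44L and IFI44 together held a single count. The 3 smallest p belonged to ASH2L, 260346 bases from ADGRA2 (-1.01, SE 0.25, edgeR adjusted p = 0.068), to HIVEP2, 305201 bases from ADGRG6 (1.52, SE 0.43, adjusted p = 0.126), and to DOK4, 123325 bases from ADGRG1 (-0.95, SE 0.31, adjusted p = 0.215), and the next to ADGRE2, 323668 bases from ADGRE5. Without the low-count filter all 3 passed, and with the replicate block ASH2L and DOK4 did. ASH2L also passed without GFI1-KO replicate 1 (0.0311) and without GFI1-KO replicate 2 (0.000691), in a range of 0.000326 to 0.23, with a log2 fold change of -1.68 without GFI1-KO replicate 2. HIVEP2 also passed without GFI1-KO replicate 1 (0.0272), in a range of 0.0221 to 0.975. DOK4 also passed on leaving out GFI1-KO replicate 2 (7.7e-08) or WT replicate 2 (0.0446), in a range up to 1. DOK4 was at 139 and 421 CPM in GFI1-KO, against 709.6 and 522 CPM in WT, and its log2 fold change was -0.55 without GFI1-KO replicate 1 and -2.14 without GFI1-KO replicate 2.

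**Figure D4:**
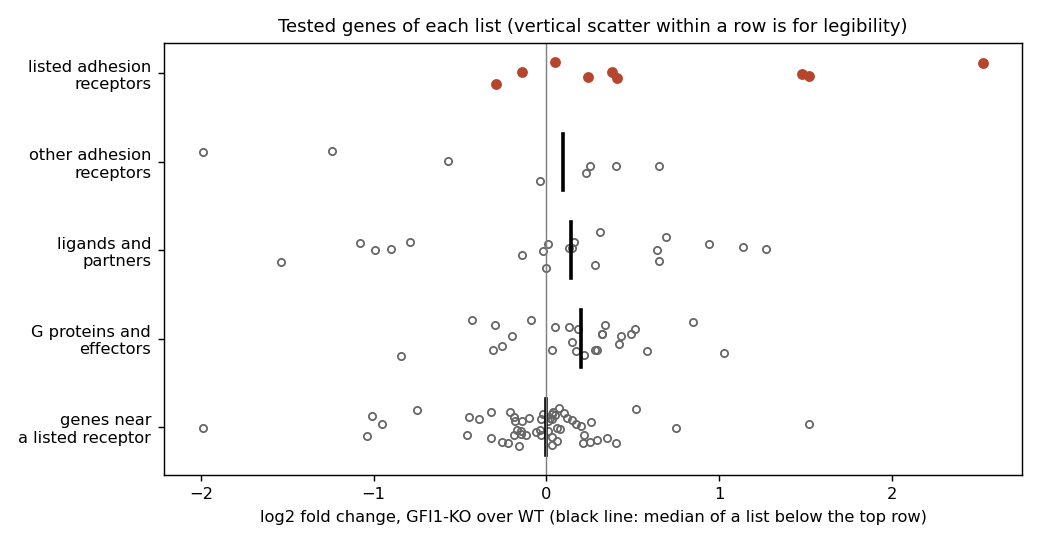
Log2 fold change, GFI1-KO over WT, of each tested gene in the listed receptors and in 4 other lists, with a black line at the median of the 4 lower rows. The medians are 0.09 for other adhesion receptors, 0.14 for ligands and partners, 0.20 for effectors and -0.00 for genes near a listed receptor.

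The genes whose profiles over the 4 libraries were nearest to those of ADGRF5 and ADGRL4 were named by distance on centred log2 CPM, among tested genes averaging 5 CPM or more. For ADGRF5 they were ENTPD1, the ectonucleotidase CD39 (distance 0.12), the exchange factor gene ARHGEF15 (0.23), IPCEF1 (0.30), FAM69C (0.35) and SETBP1 (0.42). ARHGEF15 was at 159 and 131 CPM in GFI1-KO, against 20.1 and 29 CPM in WT, and SETBP1 at 99.4 and 50.3 CPM in GFI1-KO, against 8.48 and 13.8 CPM in WT. ENTPD1 shares exons with ENTPD1-AS1 and AL365273.2, IPCEF1 with OPRM1, and ARHGEF15 with AC135178.1. For ADGRL4 the nearest 4 were DCBLD1 (0.19), INSYN2B (0.26), the calcium-release channel gene ITPR3 (0.30) and the protocadherin gene PCDH11X (0.34). DCBLD1 was at 159 and 316 CPM in GFI1-KO, against 89.3 and 112 CPM in WT, so it too was highest in GFI1-KO replicate 2. ITPR3 shares 1025 exonic bases with UQCC2, and DCBLD1 shares 117 with GOPC and with AL132671.2. IPCEF1, FAM69C, INSYN2B and PCDH11X had 1 to 3 counts in GFI1-KO replicate 1, ITPR3 had 6 and ENTPD1 had 11. ADGRF5 and ADGRL4 themselves had 13 and 15 there, so all these distances rest on few reads in that library. Likeness over 4 libraries of differing depth is a description.

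**Figure D5:**
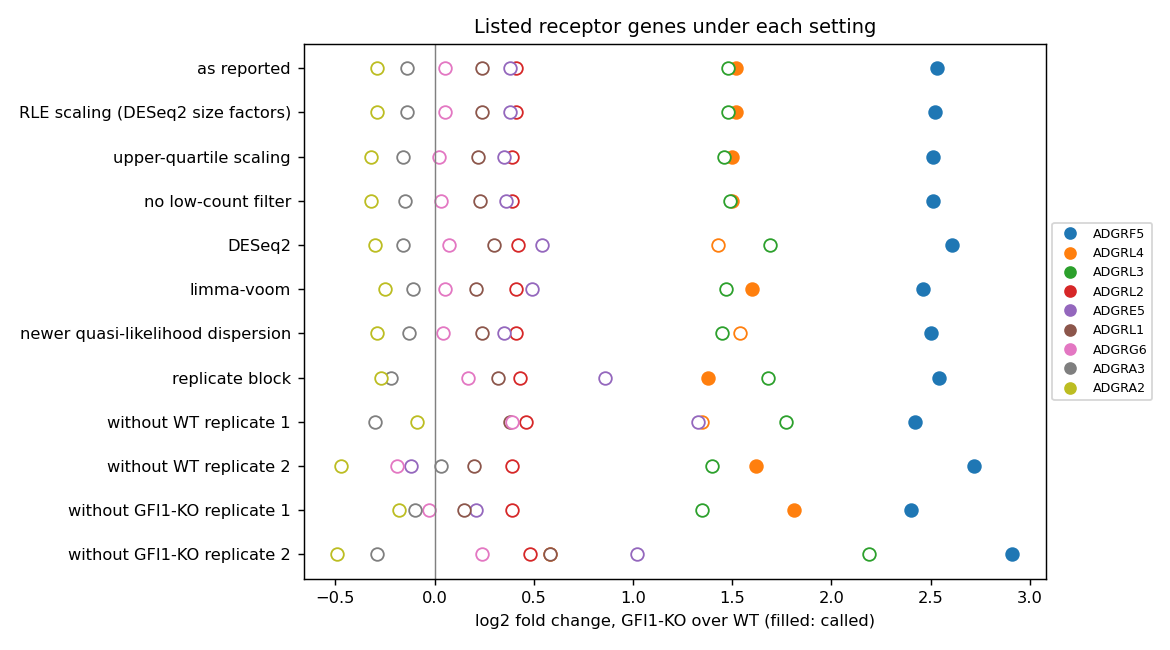
Log2 fold change of the 9 tested listed genes, GFI1-KO over WT, as reported (top row) and under each of 11 alternatives, filled where the gene was called. ADGRF5 is filled in every row, and ADGRL4 runs from 0.58 without GFI1-KO replicate 2 to 1.81 without GFI1-KO replicate 1.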

How the data were processed

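RNA was extracted with Trizol and made into libraries with an Illumina TruSeq RNA kit, per the labels' protocols. The deposited table holds raw read counts for 19912 Ensembl gene identifiers in 4 libraries, as whole numbers with totals that differ between libraries. The submitters' processing notes name HISAT2 2.0.4, SAMtools 1.3.1, HTSeq 0.6.0, DESeq 1.18.1 and the builds hg38 and GRCh38; annotation, read filters and strand setting were not given in the sources used here. Symbols, coordinates and exon overlaps came from GENCODE 29 (19902 identifiers matched), and start-site windows from RefSeq.

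Genotype was tested with edgeR 4.0.16 in R 4.3.3 (TMM, filterByExpr with a minimum count of 10 and total of 15, glmQLFit and glmQLFTest at their defaults), with Benjamini-Hochberg adjustment over 11380 genes and a threshold of 0.05. The SE is the unshrunken log2 fold change over the square root of F, without sign; fold changes carry a prior count of 0.125, and profile distances one of 2. Each 95% interval and the floor of 3 counts cover counting error only. The scripts were tested on simulated data. Alternatives were DESeq2 1.42.0, limma 3.58.1 (voom), 2 other scalings, no low-count filter, the newer quasi-likelihood dispersion, a fit with the replicate block, and fits that each left out 1 library. The listed genes and all gene lists were chosen with earlier results of these data known. Named besides the listed genes were, per list, any called gene and up to 4 others with the smallest p, and 5 nearest profiles for each of ADGRF5 and ADGRL4, of which 1 for ADGRL4 is not reported here; a gene named beyond this rule was chosen after its value was seen.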

Additional observations from a re-analysis of the deposited data

How the results depend on the processing

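The shallow GFI1-KO replicate 1 limits every value: its floor of 3 counts is 19.9 CPM, against 1.26 to 1.34 CPM in the other libraries, and no difference in ADGRL3 or ADGRG1 could be shown there. Where a library is left out, the lone library of its genotype is assumed to vary like the others. Of all tested genes 109 were called. The number was 58 with upper-quartile scaling, 58 with the newer dispersion, 29 with DESeq2, 305 without the low-count filter, 327 with the replicate block and 62 (without WT replicate 1) to 373 (without GFI1-KO replicate 1) with a library left out. Of the listed receptors 2 were called, and 1 (ADGRF5) with DESeq2 and with the newer dispersion, and 1 to 2 with a library left out. Over the other receptors, ligands, effectors and neighbours 0 of 108 were called, but 5 without the low-count filter, 6 with the replicate block and 1 to 5 with a library left out, where THY1 (without GFI1-KO replicate 1) and CC2D1A (without GFI1-KO replicate 2) also passed; the cause was not tested. The 9 log2 fold changes of listed genes moved beyond the replicate spread in 7 of 99 cases, and the called ones never changed sign. Replicate numbers are shared between genotypes, but the labels tie them to nothing, so no pairing was assumed. Same-numbered libraries deviated together with a correlation of 0.116. With 2 libraries per genotype the deviations of replicates 1 and 2 mirror each other. Those of GFI1-KO also carry the counting noise of the shallow library, so the correlation cannot decide whether replicates were paired.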
